A study of Mus musculus with 9 samples.

Results

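Small leucine-rich proteoglycans are secreted proteins built mostly of leucine-rich repeats, many of which carry sulfated sugar chains. The 9 genes described here are Ogn, Dcn, Bgn, Lum, Fmod, Aspn, Prelp, Omd and Podn, and all 9 were found by symbol among the 51810 genes of the matrix. Their RNA was sequenced from valvular interstitial cells (VICs), fibroblast-like cells of the heart valve leaflets, which had been isolated from C57BL/6J mice (aortic and mitral valve together) and grown in culture. For 24 h, 3 samples received oxidised low-density lipoprotein (oxLDL) at 50 ug/mL, 3 received native low-density lipoprotein (LDL) at 50 ug/mL, and 3 received buffer in place of lipoprotein (Control, which one label calls untreated). All samples shared a DMEM medium with basic FGF at 0.5 ng/mL, insulin at 5 ug/mL, 10% serum and EGF at 2 ng/mL. The labels give neither the number of animals nor whether samples of one treatment were separate cultures, so p-values reflect the spread among these samples, which may be technical. The genes were chosen by family name, with their TPM values and their differences between these treatments already known, so the values below describe them and a p-value beside one is no independent support.

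These proteins bind collagen fibrils and set their thickness and spacing. In arteries and valves the negatively charged chondroitin and dermatan sulfate chains of biglycan and decorin bind lipoproteins and hold them in the matrix. Several members also bind growth factors of the TGF-beta and BMP families, and soluble biglycan and decorin can act on Toll-like receptors. By the usual classes of the family, Dcn, Bgn and Aspn belong to class I, Lum, Fmod, Prelp and Omd to class II, Ogn to class III and Podn to class V.

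Values are TPM, the share of a library's transcripts that belong to a gene, corrected for gene length and scaled to a fixed total. TPM keeps no read depth, so how many reads lie behind a value is unknown. The number of genes with a value above 0 was 20985 to 21433 per library. The 10 valve fibroblast markers, all at a mean of 1 TPM or more, summed to 9898.05 to 10745.59 TPM with oxLDL, 9001.65 to 10462.74 TPM with LDL and 9970.96 to 11885.66 TPM in Control. Transcripts typical of other cells were measured too. The 8 macrophage and leukocyte markers summed to 106.1 to 667.25 TPM, 232.69 to 657.25 TPM and 233.72 to 454.25 TPM in the same order of treatments, and the 8 endothelial markers to 146.72 to 323.35 TPM, 145.3 to 337.92 TPM and 138.58 to 303.81 TPM. In bulk RNA of this kind, fewer cells of a type and less RNA per cell cannot be told apart.

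The family was dominated by biglycan and decorin. Summed over the 9 genes, the level was 6212.26, 5786.35 and 8042.09 TPM in the oxLDL libraries, 7086.38, 7478.6 and 6889.4 TPM in the LDL libraries, and 6161.31, 7290.3 and 5271.26 TPM in the Control libraries. The means were 6680 ± 1198 TPM with oxLDL, 7151 ± 299.9 TPM with LDL and 6241 ± 1012 TPM in Control (SD, n = 3 each), and the 3 ranges overlap. The family thus made up 0.527 to 0.804% of all transcripts in these cultures. Bgn and Dcn together held 88.9 to 89.5% of the sum with oxLDL, 89.0 to 89.7% with LDL and 86.7 to 88.4% in Control.

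**Figure D1:**
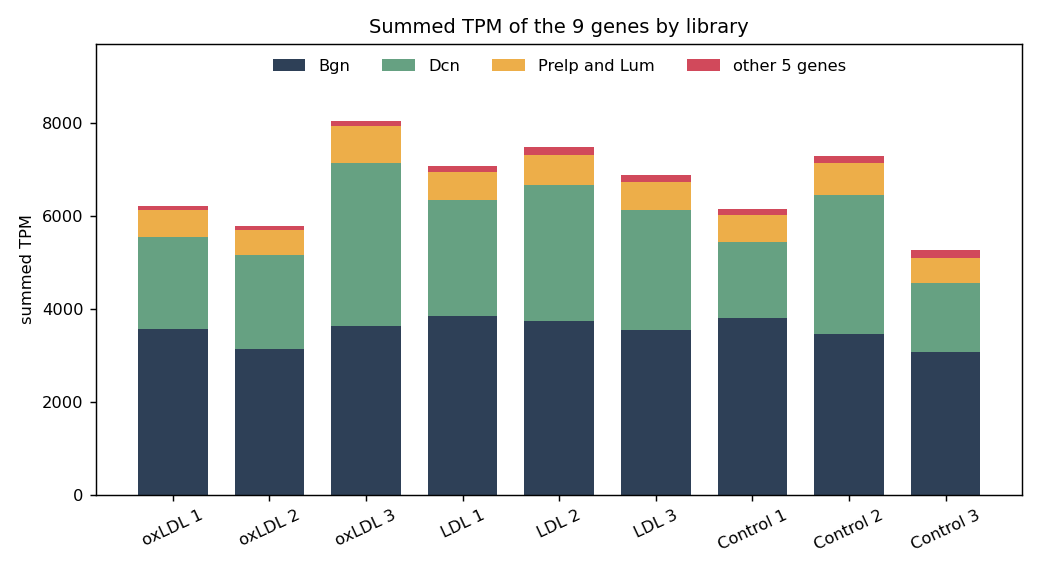
Summed TPM of the 9 genes in each library (bars, starting at 0), split into Bgn, Dcn, Prelp with Lum, and the other 5 genes. The bars run from 5271.26 TPM in Control 3 to 8042.09 TPM in oxLDL 3, and most of that span lies in the Dcn segment.

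In order of their mean TPM over the 9 libraries the genes were Bgn (3539), Dcn (2403), Prelp (314), Lum (301), Ogn (73.2), Fmod (51.5), Omd (3.98), Aspn (2.41) and Podn (2.23). Bgn exceeded Dcn, and Lum exceeded Ogn, in 9 of 9 libraries. Dcn exceeded Prelp, and Fmod exceeded Omd, in 9 of 9 as well, and Omd exceeded Aspn in 8 of 9. Prelp and Lum traded places, with Prelp higher in 5 of the 9 libraries, and so did Ogn and Fmod, with Ogn higher in 7, and Aspn and Podn, with Aspn higher in 6. Part of this went with the treatment. Ogn was below Fmod in oxLDL 1 and oxLDL 2 and above it in oxLDL 3 and in all 6 LDL and Control libraries. Prelp was above Lum in oxLDL 2, LDL 2 and all 3 Control libraries. Aspn and Podn, whose ranges overlap in each treatment, do not differ beyond their spread. Every member was above 1 TPM in every library, the lowest being Podn at 1.05 TPM in oxLDL 2, so all 9 passed the filter of a mean of at least 1 TPM.

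Ogn encodes osteoglycin, also called mimecan, which regulates collagen fibril growth. Its level was 34.1, 40.98 and 48.03 TPM in the oxLDL libraries, 77.52, 100.85 and 115.96 TPM in the LDL libraries, and 70.09, 74.81 and 96.12 TPM in the Control libraries. All 3 oxLDL libraries lay below all 6 others, while the LDL and Control ranges overlap. Ogn averaged 41.0 ± 6.97 TPM with oxLDL, 98.1 ± 19.4 TPM with LDL and 80.3 ± 13.9 TPM in Control (SD, n = 3 each). The oxLDL mean was 1.96-fold lower than that of Control and 2.39-fold lower than that of LDL.

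Libraries that carry the same replicate number resembled each other across all genes, most clearly number 1, so the number was also used as a block in the fit. Within a number the Ogn ratio of oxLDL to Control was 0.486, 0.548 and 0.500 for numbers 1, 2 and 3. The ratio of oxLDL to LDL was 0.440, 0.406 and 0.414. Number by number, Ogn in oxLDL cultures was close to the same fraction of its partner each time. The ratio of LDL to Control was above 1 for every number, at 1.11, 1.35 and 1.21.

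Ogn lies on a different chromosome from the abundant members. Adjoining a relative is not particular to it. Dcn and Lum lie 47.0 kb apart and Prelp and Fmod 115.8 kb, with 0 protein-coding genes inside either gap. Ogn, Omd and Aspn lie side by side on mouse chromosome 13 (GRCm38), all on the plus strand. Ogn spans chr13:49608046-49624501, Omd chr13:49582462-49592822 and Aspn chr13:49544443-49567565. The gap between Aspn and Omd is 14.9 kb and that between Omd and Ogn 15.2 kb, with 0 protein-coding genes inside either gap. Ecm2, a relative of the family, precedes Aspn by 11.7 kb. All 4 genes lie inside the span of Cenpp, a centromere protein gene of the opposite strand. Cenpp was at 6.83, 8.02 and 6.97 TPM with oxLDL, 6.2, 8 and 8.35 TPM with LDL, and 8.99, 9.76 and 10.8 TPM in Control, so Control was the highest. Its exons share 0 bases with the exons of Ogn or Omd and 7 bases with those of Aspn. The library kit does not mark strand, and whether Cenpp reads contribute to these genes was not tested.

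**Figure D2:**
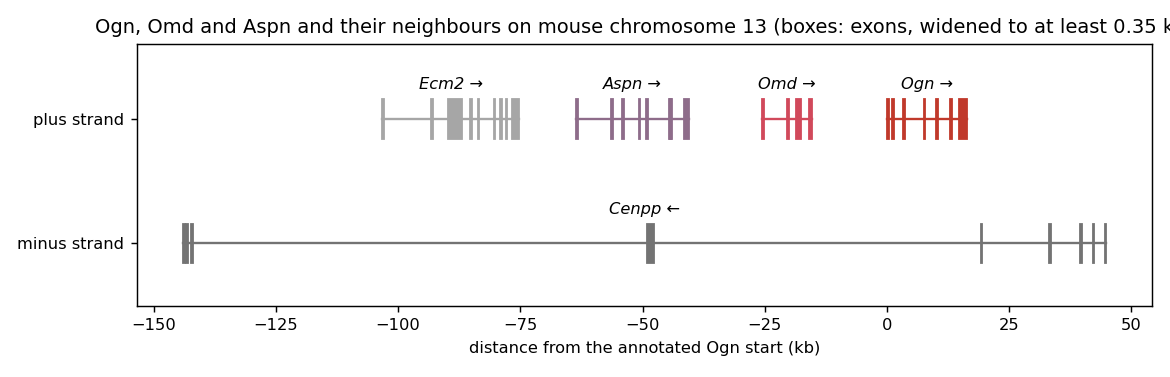
Map of the gene cluster that holds Aspn, Omd and Ogn, drawn as distance in kb from the annotated Ogn start, with plus-strand genes above and the minus-strand gene Cenpp below. Boxes are exons, widened where they would be too thin to see; those of Cenpp sit apart from those of Ogn and Omd, and Aspn has 7 exonic bases in common with Cenpp.

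The 250 bases before the start of these 3 neighbours are shown because Ogn is the member with the lowest ratio of oxLDL to LDL and the others adjoin it, with Bgn, the most abundant member, beside them. All 3 were lower in oxLDL than in Control for every replicate number, which is not particular to them: Fmod was too, and Ecm2, their neighbour, was not, at 2.49, 1.91 and 2.99 TPM with oxLDL and 3.02, 2.65 and 2.91 TPM in Control. The sequences are RefSeq's on GRCm38.p6, 5′ to 3′ on the plus strand, in lower case. Capitals mark matches on either strand to 6 short motifs, which were searched as letters only: the TATA box (TATAAA), the GC box (GGGCGG), the E-box (CANNTG), the AP-1 site (TGANTCA), the antioxidant response element (TGACNNNGC) and the M-CAT element (GGAATG). The table held promoters for 7 of the 9 members, not for Dcn and Lum.
Ogn chr13:49607765-49608014: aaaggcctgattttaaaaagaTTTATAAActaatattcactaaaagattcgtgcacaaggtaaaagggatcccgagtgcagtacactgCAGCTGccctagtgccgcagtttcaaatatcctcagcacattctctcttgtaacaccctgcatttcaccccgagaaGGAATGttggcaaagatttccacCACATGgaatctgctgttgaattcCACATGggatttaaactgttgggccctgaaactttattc
Omd chr13:49582212-49582461: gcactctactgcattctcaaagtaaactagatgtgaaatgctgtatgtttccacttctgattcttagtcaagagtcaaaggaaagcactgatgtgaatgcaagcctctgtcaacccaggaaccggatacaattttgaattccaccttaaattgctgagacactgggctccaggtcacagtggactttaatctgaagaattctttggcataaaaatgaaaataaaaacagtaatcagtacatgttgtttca
Aspn chr13:49544193-49544442: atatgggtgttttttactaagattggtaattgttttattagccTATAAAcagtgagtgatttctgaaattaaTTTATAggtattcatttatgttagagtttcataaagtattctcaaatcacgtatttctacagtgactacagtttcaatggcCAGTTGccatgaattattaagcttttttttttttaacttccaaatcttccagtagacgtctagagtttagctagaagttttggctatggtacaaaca
Bgn chrX:73483351-73483600: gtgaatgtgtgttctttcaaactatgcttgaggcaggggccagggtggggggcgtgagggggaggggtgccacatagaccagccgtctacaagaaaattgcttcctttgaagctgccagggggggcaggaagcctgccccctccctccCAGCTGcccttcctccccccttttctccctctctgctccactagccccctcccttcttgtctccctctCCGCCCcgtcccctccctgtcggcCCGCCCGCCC

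The windows of the 3 neighbours were poor in G and C, at 42.0% for Ogn, 38.4% for Omd and 30.0% for Aspn, whereas Bgn had 64.4% and the median over 32851 promoters was 52.4%. Of the members not shown, Fmod had 51.2%, Prelp 55.6%, and Podn 78.0% and 64.0% before its separate starts. The Ogn window held 2 overlapping TATA box matches, found on the 2 strands far upstream of the start, 3 E-box matches and 1 M-CAT match. Over all promoters, windows of this length held the TATA box letters in 12.4%, the E-box letters in 66.2% and the M-CAT letters in 12.6%. The Omd window held a match to 0 of the 6 motifs, as did that of Prelp, and the Aspn window held 2 TATA box matches and 1 E-box match. The Bgn window had 3 GC box matches, 2 of them overlapping, and 1 E-box match, and the GC box letters occurred in 32.7% of all windows. The AP-1 and antioxidant letters, present in 6.75% and 10.2% of all windows, were in none of the 4 windows shown. A match describes letters and not a bound site, and its absence here says nothing of a factor. The other members lie elsewhere on GRCm38. Dcn (chr10:97479609-97518143) and Lum (chr10:97565128-97572703) share chromosome 10, and Fmod (chr1:134037254-134048277) and Prelp (chr1:133910304-133921414) share chromosome 1. Bgn is at chrX:73483602-73495933 and Podn at chr4:108014791-108096445.

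The comparison of oxLDL with Control addresses the response to the modified particle. Of the 9 members, 6 had a lower and 3 a higher mean log2 level with oxLDL, with a median log2 difference of -0.15 against -0.0028 over all genes tested. By limma without the replicate number 0 of 9 members passed an adjusted p of 0.05, where 0.0148% of the 13495 genes tested did, and 4 members had an unadjusted p under 0.05, where 3.86% of all genes did. With the number as a block 1 member passed, Ogn, where 0.126% of all genes did. Groups that do not overlap, with oxLDL the lower, were seen for Ogn, Fmod and Omd, 3 of 9, where 3.83% of all genes had them. Since the family was listed with this contrast known, nothing is read from these counts.

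Ogn differed between oxLDL and Control by -0.95 on the log2(TPM + 1) scale (95% CI -1.36 to -0.55, limma adjusted p = 0.421). With the block the interval narrowed to -1.09 to -0.81 (adjusted p = 0.00321). In the 9 blocked fits that each left out 1 library, chosen after seeing the data, Ogn passed each time, with adjusted p from 0.00511 to 0.0472.

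Omd encodes osteomodulin, also called osteoadherin, a keratan sulfate proteoglycan best known from bone. It was listed at 2.59, 2.57 and 3.15 TPM with oxLDL, 3.4, 3.37 and 5.27 TPM with LDL, and 4.28, 4.01 and 7.22 TPM in Control. The oxLDL libraries were below all others, as for Ogn. The log2 difference between oxLDL and Control was -0.68 (95% CI -1.17 to -0.19, limma adjusted p = 1, and 0.141 with the block). It was -0.38 with a pseudocount of 5 and -0.83 with 0.1.

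Aspn encodes asporin, which binds collagen and TGF-beta. It was listed at 2.36, 1.3 and 1.43 TPM with oxLDL, 2.78, 2.01 and 1.58 TPM with LDL, and 4.5, 2.24 and 3.48 TPM in Control. Control 2 fell inside the oxLDL range, so the groups overlap, although each oxLDL library was below the Control library of its own number. The difference of -0.70 between oxLDL and Control (95% CI -1.24 to -0.15) did not pass in limma (adjusted p = 1, and 0.229 with the block). It was -0.32 with a pseudocount of 5 and -0.96 with 0.1, so the size for these low genes depends on that setting.

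Fmod encodes fibromodulin, a keratan sulfate proteoglycan that binds collagen and guides its crosslinking. Its level was 45.09, 44.32 and 39.22 TPM in the oxLDL libraries, 44.16, 60.68 and 38.67 TPM in the LDL libraries, and 66.1, 66.77 and 58.22 TPM in the Control libraries. Both oxLDL and, apart from LDL 2, LDL lay below Control. Fmod averaged 42.9 ± 3.19 TPM with oxLDL, 47.8 ± 11.5 TPM with LDL and 63.7 ± 4.75 TPM in Control (SD, n = 3 each). Within the numbers the ratio of oxLDL to Control was 0.682, 0.664 and 0.674, a narrow range. The log2 difference was -0.56 (95% CI -0.90 to -0.22), and it did not pass over all genes in limma (adjusted p = 0.821, and 0.145 with the block). Of the 9 blocked fits that each left out 1 library, chosen after seeing the data, Fmod passed in 1, without LDL 2. The limma adjusted p was 0.0416 there and up to 0.571 in the others.

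**Figure D3:**
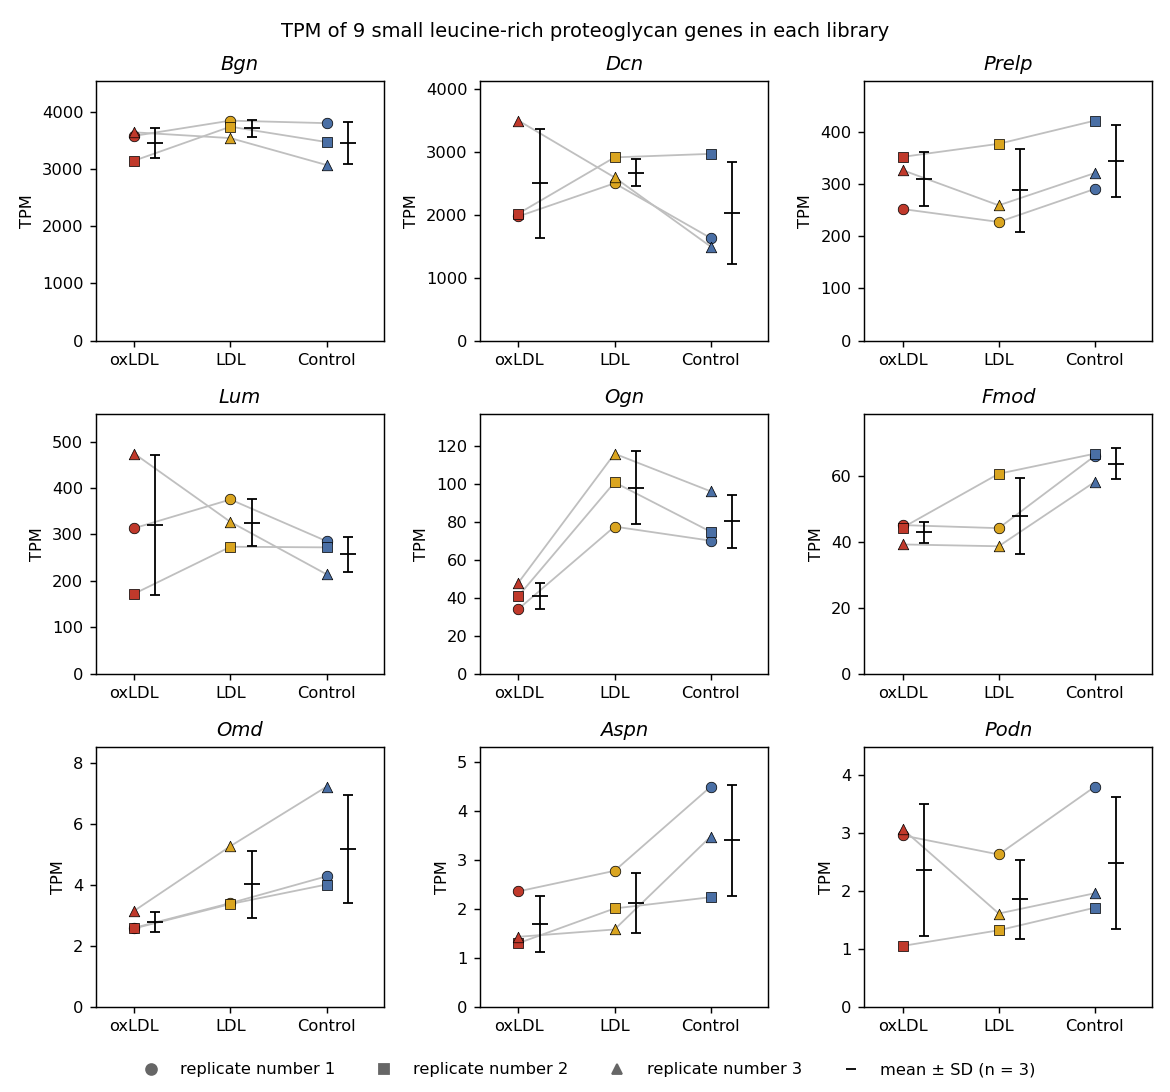
TPM of each gene (y axis, from 0) in the oxLDL, LDL and Control libraries; marker shape gives the replicate number, grey lines join libraries of the same number, and the bars beside the points are mean ± SD (n = 3). Ogn lies at 34.1 to 48.03 TPM in the 3 oxLDL libraries, Fmod, Omd and Aspn are highest in Control on average, and Dcn and Lum are spread widely within oxLDL.

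Bgn encodes biglycan, which carries chondroitin or dermatan sulfate chains. It had 3580.98, 3147.78 and 3643.14 TPM with oxLDL, 3847.77, 3741.77 and 3541.83 TPM with LDL, and 3803.42, 3472.89 and 3071.4 TPM in Control. The 3 ranges overlap, and Bgn varied least of all members, with a highest value 1.25 times its lowest over the 9 libraries. Between oxLDL and Control its log2 difference was 0.01 (95% CI -0.21 to 0.23, limma adjusted p = 1).

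Dcn encodes decorin, the chondroitin or dermatan sulfate proteoglycan named for decorating collagen fibrils. Its level was 1978.37, 2023.74 and 3503.23 TPM with oxLDL, 2505.35, 2917.8 and 2598.2 TPM with LDL, and 1632.84, 2973.95 and 1497.48 TPM in Control. Control 2 and oxLDL 3 stood above their own groups. The coefficient of variation was 34.7% with oxLDL, 8.09% with LDL and 40.1% in Control. Within the numbers the ratio of oxLDL to Control was 1.21, 0.680 and 2.34, so the direction was not shared. The log2 difference was 0.32 (95% CI -0.33 to 0.96, limma adjusted p = 1, and 0.809 with the block).

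Lum encodes lumican, a keratan sulfate proteoglycan known from the cornea and from tendon and valve matrix. It was at 313.55, 172.31 and 474 TPM with oxLDL, 375.28, 273.43 and 326.95 TPM with LDL, and 285.51, 272.09 and 214.09 TPM in Control. The oxLDL libraries held both the lowest and the highest value of all 9. The log2 difference between oxLDL and Control was 0.21 (95% CI -0.50 to 0.91, limma adjusted p = 1), and it was -0.13 without oxLDL 3. Lum moved with the summed macrophage and leukocyte markers over the 9 libraries (Pearson r = 0.80, Spearman rho = 0.93) and with the 5 melanocyte markers (r = 0.86, rho = 0.92), libraries that share treatments and numbers. The melanocyte sums were 2.74 to 14.73 TPM with oxLDL, 5.38 to 19.15 TPM with LDL and 3.81 to 12.13 TPM in Control, and the 8 macrophage and leukocyte markers had means of 1 TPM or more in each treatment. Their part in the Lum values was not tested.

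**Figure D4:**
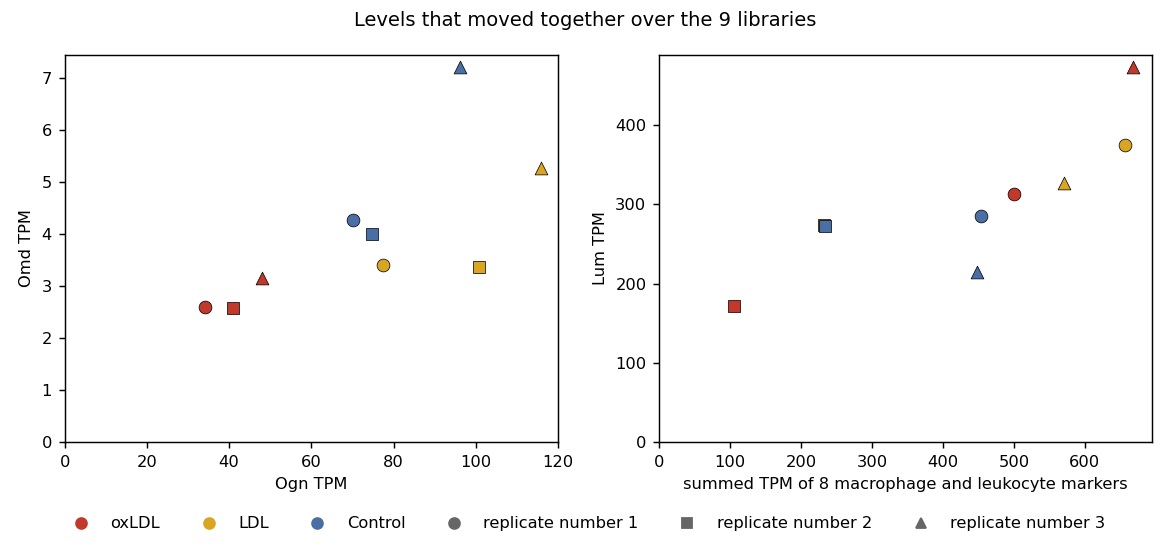
Left, Omd TPM against Ogn TPM; right, Lum TPM against the summed TPM of 8 macrophage and leukocyte markers; each point is 1 of the 9 libraries, coloured by treatment and shaped by replicate number. The oxLDL points gather at low Ogn and low Omd on the left, and on the right they span the whole Lum range, 172.31 to 474 TPM, with Control 2 and LDL 2 lying on the same spot.

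Prelp encodes prolargin, which links basement membranes to collagen. It had 252.26, 352.3 and 326.82 TPM with oxLDL, 227.49, 377.37 and 259.33 TPM with LDL, and 290.77, 421.83 and 321.29 TPM in Control. In each treatment number 1 was lowest and number 2 highest, so the level followed the replicate number. The log2 difference between oxLDL and Control was -0.15 (95% CI -0.62 to 0.33, limma adjusted p = 1, and 0.654 with the block). Over the 9 libraries Prelp ran against several marker sums, those of Schwann and neural cells (Pearson r = -0.85, Spearman rho = -0.85), endothelial cells (r = -0.78, rho = -0.90), melanocytes (r = -0.77, rho = -0.67), epicardial and mesothelial cells (r = -0.73, rho = -0.73) and macrophages and leukocytes (r = -0.69, rho = -0.67). Their part in it was not tested. Its exons share 350 bases with Gm15851, a gene model of the opposite strand at 7.66 to 19.26 TPM, so some reads cannot be assigned to either.

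Podn encodes podocan, a class V member. It was listed at 2.96, 1.05 and 3.07 TPM with oxLDL, 2.63, 1.32 and 1.61 TPM with LDL, and 3.8, 1.71 and 1.96 TPM in Control. Number 2 was the lowest in each treatment, and the groups overlap. The log2 difference between oxLDL and Control was -0.07 (95% CI -0.81 to 0.66, limma adjusted p = 1), and it was 0.18 without Control 1 and 0.25 without oxLDL 2. The annotated span of Podn overlaps that of Scp2, a gene of the same strand at 164.56 to 229.05 TPM. Their exons share 0 bases, and whether Scp2 reads contribute to Podn was not tested. Podn ran with the Schwann and neural (r = 0.79, rho = 0.77), endothelial (r = 0.78, rho = 0.68), cartilage (r = 0.76, rho = 0.72), valve fibroblast (r = 0.74, rho = 0.78), macrophage and leukocyte (r = 0.74, rho = 0.67) and melanocyte sums (r = 0.74, rho = 0.68). Other ties beyond 0.7 in either direction were those of Aspn with the valve fibroblast (r = 0.79, rho = 0.80) and cardiomyocyte sums (r = 0.76, rho = 0.73), of Bgn with the melanocyte sum (r = 0.74, rho = 0.80) and of Dcn with the cardiomyocyte sum (r = -0.71, rho = -0.82). Of the 5 cardiomyocyte markers only 1, Tnnt2, had a mean of 1 TPM or more, so that sum is largely the level of Tnnt2. Tnnt2 averaged highest in Control, whereas Myh6, Actc1, Nppa and Ryr2 each averaged highest with LDL. The part of these markers was not tested.

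The comparison of oxLDL with LDL addresses what differs between the modified and the native particle. It shares the oxLDL libraries with the previous comparison. By limma 0 of 9 members passed, where 0.104% of all genes did, and 1 member had an unadjusted p under 0.05, where 3.91% of all genes did. With the block 1 member passed, again Ogn, where 0.259% of all genes did. Groups that do not overlap, with oxLDL the lower, were seen for Ogn and Omd, 2 of 9, where 4.2% of all genes had them. The median log2 difference of the members was -0.13, against 0.00087 over all genes.

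Ogn differed by -1.23 between oxLDL and LDL (95% CI -1.64 to -0.82, limma adjusted p = 0.0653), its largest difference in the 3 comparisons. With the block the interval was -1.37 to -1.09 (adjusted p = 0.000723), and in the 9 blocked fits with 1 library left out the adjusted p ran from 0.00328 to 0.0239. Without the block it passed under median-ratio scaling of the libraries (adjusted p = 0.0286) and under quantile normalization (adjusted p = 0.0372). The log2 difference of Omd was -0.39 (95% CI -0.88 to 0.10, limma adjusted p = 1, and 0.369 with the block).

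The other 7 members did not pass between oxLDL and LDL in either fit, which does not show that they were equal. The interval of Bgn was the narrowest, at -0.32 to 0.12 around a difference of -0.10. That of Fmod ran from -0.47 to 0.20 around -0.13, and that of Prelp from -0.35 to 0.61 around 0.13. For Aspn the difference was -0.21 (95% CI -0.76 to 0.33), although each oxLDL library was below the LDL library of its number. Dcn at -0.15 (95% CI -0.79 to 0.50), Lum at -0.13 (95% CI -0.84 to 0.58) and Podn at 0.20 (95% CI -0.54 to 0.93) had the widest intervals. Without oxLDL 2 the Lum difference was 0.26. The 6 smooth muscle and myofibroblast markers summed to 1469.48 to 1523.55 TPM with oxLDL and 1056.28 to 1332.89 TPM with LDL, ranges that do not overlap. Of these 6, 4 had a mean of 1 TPM or more, and Acta2 and Tagln, at means of 718 and 650 TPM, made up most of the sum. Those 2 were higher with oxLDL, by 0.32 and 0.30 in log2, while Smtn and Cnn1 differed by -0.0043 and -0.06. The part of the markers in these differences was not tested.

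**Figure D5:**
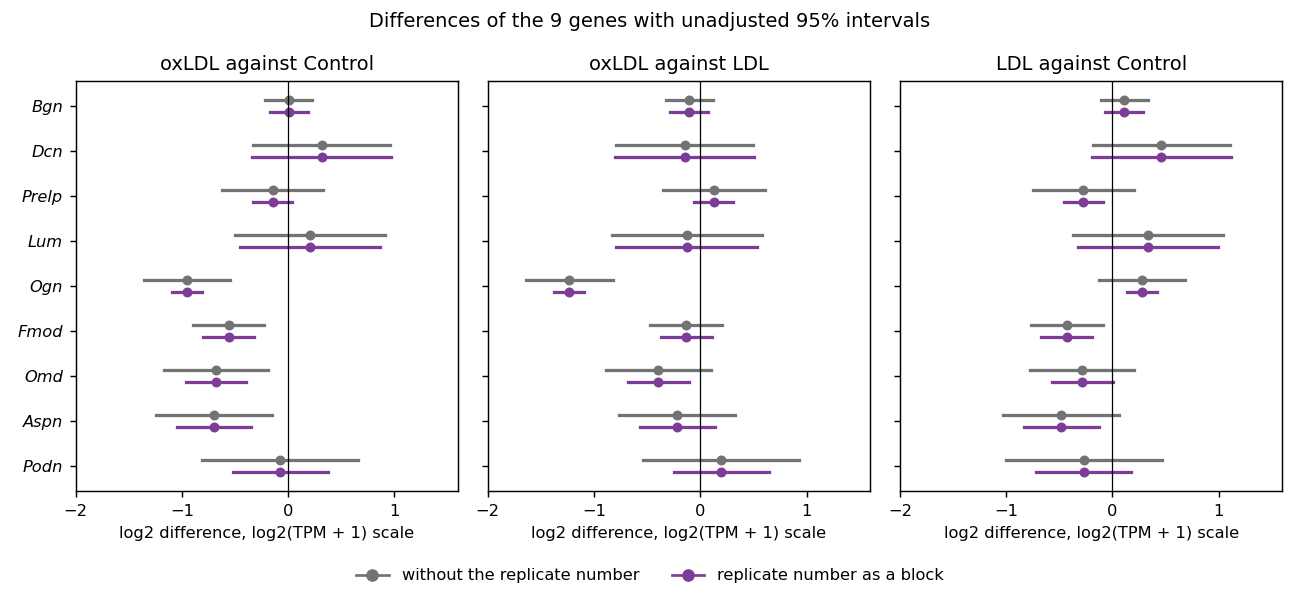
Log2 differences of the 9 genes on the log2(TPM + 1) scale with unadjusted 95% intervals, for oxLDL against Control, oxLDL against LDL and LDL against Control; grey without the replicate number, purple with it as a block. Ogn stands at -0.95, -1.23 and 0.28 in the 3 panels, and with the block its interval is narrower in each.

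The comparison of LDL with Control addresses the response to the native particle. It shares the Control libraries with the first comparison and the LDL libraries with the second. By limma 0 of 9 members passed, where 0.333% of all genes did, and 0 passed with the block, where 0.852% did. An unadjusted p under 0.05 was seen for 1 member, where 6.65% of all genes had one. In 0 of 9 members were the groups free of overlap, where 10.7% of all genes were. The median log2 difference of the members was -0.27, against -0.0018 over all genes.

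Between libraries of the same number, Fmod, Aspn, Prelp, Omd and Podn were lower with LDL for all 3 numbers, and Ogn, Bgn and Lum higher for all 3. Of all genes 35.4% had one sign for all 3 numbers, and since the members were listed with this contrast known and same-numbered libraries move together, nothing is read from the count of 8 of 9. The log2 difference of Fmod was -0.43 (95% CI -0.77 to -0.09, limma adjusted p = 0.529, and 0.128 with the block). Of the 9 blocked fits that each left out 1 library, chosen after seeing the data, it passed in 1, without LDL 2. The limma adjusted p was 0.0313 there and up to 0.533 in the others. The log2 difference of Aspn was -0.48 (95% CI -1.03 to 0.06, limma adjusted p = 0.832). Prelp, Omd and Podn differed by -0.27, -0.28 and -0.27, and each moved with single libraries. Prelp was at -0.12 without Control 2 and -0.48 without LDL 2, Omd at -0.058 without Control 3 and -0.46 without LDL 3, and Podn at -0.016 without Control 1 and -0.46 without LDL 1. Ogn differed by 0.28 (95% CI -0.13 to 0.69, limma adjusted p = 0.956, and 0.103 with the block), opposite in sign to its difference with oxLDL. Dcn differed by 0.46 (95% CI -0.18 to 1.11), with number 2 the exception at a ratio of 0.981, and was at 0.28 without Control 3 and 0.77 without Control 2. Lum differed by 0.34 (95% CI -0.37 to 1.04), and by 0.21 without Control 3. Bgn differed by 0.11 (95% CI -0.11 to 0.33), and by 0.029 without Control 3 and 0.18 without Control 1. The smooth muscle and myofibroblast markers summed to 1056.28 to 1332.89 TPM with LDL and 1503.95 to 1744.98 TPM in Control, again without overlap. Acta2 and Tagln, which made up most of the sum, differed by -0.50 and -0.34 in log2, Smtn by -0.20 and Cnn1 by -0.01. The part of the markers was not tested.

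The members did not move as a unit over the 9 libraries. Among the 36 pairs of members, Pearson's r of log2(TPM + 1) was positive in 21 and negative in 15, with a median of 0.03. The highest was that of the neighbours Ogn and Omd (r = 0.75), and it was 0.79 when each treatment's mean was removed first. Pairs on different chromosomes were nearly as high: Bgn and Lum had r = 0.73 (0.72 with the means removed), Fmod and Aspn 0.65 (0.12) and Lum and Podn 0.62 (0.80). The adjacent Aspn and Omd had r = 0.47, and -0.16 with the means removed, and Ogn and Aspn had 0.25, and -0.58. Dcn and Lum, which lie 47.0 kb apart on chromosome 10, had r = 0.59, and Prelp and Fmod, 115.8 kb apart on chromosome 1, had r = 0.54. The lowest r was that of Dcn and Aspn, at -0.66. The libraries share treatments and numbers, so these values carry no p.

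Among 9844 genes that averaged 5 TPM or more, those whose pattern over the 9 libraries was most like that of Ogn were Hacd4, an enzyme of very-long-chain fatty acid elongation (r = 0.93), Anxa6, an annexin that binds membranes (r = 0.93), and Foxp2, a forkhead transcription factor (r = 0.93). Anxa6 averaged 186 TPM with oxLDL, 232 TPM with LDL and 211 TPM in Control, a much shallower course than that of Ogn. For Dcn they were Trf, the iron carrier transferrin (r = 0.99), Emb, the adhesion protein embigin (r = 0.95), and Fam49a (r = 0.95). Trf averaged 331 TPM with oxLDL, 378 TPM with LDL and 241 TPM in Control. For Aspn they were Col11a1, a chain of a minor fibrillar collagen (r = 0.96), Pycard, an inflammasome adaptor (r = 0.93), and Gyg, the glycogen primer glycogenin (r = 0.93). These genes were picked as the highest r among 9844 over only 9 libraries, so values this high can come from the search alone. A shared regulation or role was not tested.

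Other genes of the pathway came from 8 lists of known roles, written with earlier results of these data known, which hold 115 genes, 95 of them tested. By limma 0 of the 95 passed in any of the 3 comparisons. An unadjusted p under 0.05 was seen for 3 of them between oxLDL and Control, where 3.86% of all genes had one. It was seen for 6 between oxLDL and LDL and 12 between LDL and Control, where 3.91% and 6.65% of all genes had one. In limma with the block 3 passed, each in 1 comparison, where in that order 0.126%, 0.259% and 0.852% of all genes did. Those 3 were Tsku, Adamts5 and Sdc2, singled out after their values were seen.

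Among 9 further family members and relatives 4 were tested. Tsku, which encodes tsukushi, a secreted class IV relative, was at 86.66, 99.76 and 100.57 TPM with oxLDL, 76.8, 100.31 and 109.03 TPM with LDL, and 60.05, 73.09 and 65.53 TPM in Control. All treated libraries were above all Control libraries. The log2 difference was 0.51 for LDL against Control (limma adjusted p = 0.277) and it passed with the block (adjusted p = 0.0346). For oxLDL against Control it was 0.53 (adjusted p = 0.725, and 0.0784 with the block). Epyc, epiphycan, which follows Lum and Kera on chromosome 10, averaged 5.61 ± 1.69 TPM with oxLDL, 6.36 ± 0.647 TPM with LDL and 9.11 ± 2.53 TPM in Control (SD, n = 3 each) and did not pass. Kera, keratocan, was listed at 0 in 7 of the 9 libraries.

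Of 22 genes that build chondroitin and dermatan sulfate chains 20 were tested, with 0 passing in either fit in any comparison and medians of -0.0036 for oxLDL against Control, -0.0068 for oxLDL against LDL and -0.012 for LDL against Control. The most abundant, Chpf and Chpf2, which polymerise the chain, differed between oxLDL and Control by -0.04 and 0.25. Of 9 genes of keratan sulfate chains 6 were tested and 0 passed in either fit. B4galt1, a galactosyltransferase, differed by -0.12 and B3gnt2, which extends the chain, by -0.12 for oxLDL against Control.

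The 10 collagen genes were all tested and 0 passed in either fit, with medians of -0.06, 0.03 and -0.12 for oxLDL against Control, oxLDL against LDL and LDL against Control. Col3a1 and Col1a1, the fibrillar chains, differed between oxLDL and Control by -0.25 and -0.02. Of 15 genes for proteases that act on the members or their relatives, a proteinase enhancer among them, 12 were tested. Adamts5, an aggrecanase, was at 31.44, 51.26 and 54.82 TPM with LDL and 48.04, 66.02 and 87.76 TPM in Control. The ranges overlap, and each LDL library was below its Control partner. The log2 difference was -0.54 (limma adjusted p = 0.9), and it passed with the block (adjusted p = 0.0195). Mmp3, stromelysin 1, differed by 0.78 for LDL against Control (adjusted p = 0.344) and Pcolce, the enhancer, by -0.01.

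Among 14 receptor genes 13 were tested and 0 passed in either fit, among them Itgb1, an integrin chain (-0.01 for oxLDL against Control), and Lrp1, an endocytic receptor for decorin (-0.03). Of 16 TGF-beta ligands, binding proteins and targets, 15 matched and were tested and 0 passed in either fit. Tgfbi, an induced matrix protein, differed by 0.12 for oxLDL against Control. Of 21 other proteoglycan core proteins 16 were tested. Hspg2, the basement membrane proteoglycan perlecan, differed by -0.10 and Sdc4, a syndecan, by 0.07 for oxLDL against Control.

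Sdc2, the cell surface heparan sulfate proteoglycan syndecan 2, was at 83.87, 89.89 and 100.65 TPM with oxLDL and at 103.58, 128.14 and 128.82 TPM with LDL. The oxLDL libraries were all below the LDL libraries. The log2 difference was -0.39 (limma adjusted p = 0.801), and it passed with the block (adjusted p = 0.0486).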

How the data were processed

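STAR (no version), RSEM 1.3.1 and the build mm10 are named in the submitters' processing notes. Which gene annotation was used is not stated there. The deposited values are TPM, made by the authors, with 1 column per library and 0 columns left out. Per the labels' protocols, 50 ng of RNA per sample was amplified as cDNA, built into libraries without strand marking and sequenced as paired 100 bp reads. Depth is unknown.

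Values were analysed as log2(TPM + 1), pseudocount 1, for 13495 genes, those whose TPM averaged 1 or more over the 9 libraries. limma 3.58.1 in R 4.3.3 (trend eBayes, two-sided, Benjamini-Hochberg over these genes, threshold 0.05) fitted all 9 libraries together, with 6 residual degrees of freedom, or 4 once the replicate number was added as a block. The fit without the block was tested on simulated data with no likeness among same-numbered libraries, and the blocked fit was not. Same-numbered libraries deviated from their group means together (r from 0.172 to 0.497, 9 pairs), unlike differently numbered ones (r from -0.309 to 0.130, 18 pairs). Deviations cancel out within a group, so likeness in the 9 pairs lowers r in the 18, which are no independent contrast. The likeness was clearest for number 1 (r from 0.472 to 0.497). Control 3 with oxLDL 3 was at 0.172, near the 0.130 of Control 3 with oxLDL 2. The numbers, taken from the sample titles, were therefore used to pair the samples, though no shared culture or day is stated. An exact permutation of 3 against 3 cannot give a p below 0.1 and was not run. Replicates of a treatment shared 1.20 to 3.33% identical values, so none was a copy.

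Members and lists were chosen with earlier results of these data known. Named genes are all 9 members, the called genes of each list or else its 2 most abundant, and the 3 genes most like Ogn, Dcn and Aspn; the text marks others as singled out afterwards. A gene that this rule names is not reported here. Positions came from GENCODE M21 (GRCm38), promoters from RefSeq (GRCm38.p6). Alternatives varied the block, pseudocount, filter, scaling, prior and libraries.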

Additional observations from a re-analysis of the deposited data

How the results depend on the processing

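Of 801 member differences under 30 alternatives, 780 kept their direction. The other 21, in 10 results, all came from leaving out 1 library, with or without the replicate number as a block. Part of the 780 could not have turned. With all libraries kept, the block, the filters and the prior without trend leave a log2 difference unchanged. So does a fit of the compared libraries alone. Leaving out a library of the treatment not compared changes it neither with nor without the block. The count of 780 is therefore no measure of how stable the directions are. With a mean of at least 5 TPM required, Omd, Aspn and Podn gave no value, and a pseudocount of 5 moved each of their differences by over 1.5 times toward 0. Between LDL and Control the direction held with 1 library left out, but the sizes ran from -0.46 to -0.016 for Podn, -0.46 to -0.058 for Omd, -0.48 to -0.12 for Prelp, -0.69 to -0.30 for Aspn, 0.15 to 0.44 for Ogn, 0.21 to 0.46 for Lum, 0.28 to 0.77 for Dcn and 0.029 to 0.18 for Bgn. With 1 library left out and no block, the log2 difference between oxLDL and Control ran from -0.25 to 0.25 for Podn, -0.26 to 0.0082 for Prelp, -0.075 to 0.079 for Bgn and -0.13 to 0.59 for Lum. Turned values inside these ranges were 0.18 for Podn without Control 1, and -0.021 and -0.033 for Bgn without oxLDL 1 and oxLDL 3. Between oxLDL and LDL it ran from -0.025 to 0.34 for Prelp, -0.27 to 0.049 for Fmod and -0.47 to 0.26 for Lum. With the block and 1 library left out, a combination chosen after seeing the data, the turned values between oxLDL and Control were 0.011 and 0.10 for Podn without Control 1 and oxLDL 2. For Bgn they were -0.078 and -0.090, and for Lum -0.095 and -0.19, without Control 3 and oxLDL 3, and for Dcn -0.056 without oxLDL 3. Between oxLDL and LDL they were 0.020 for Fmod without LDL 2, 0.17 for Dcn and 0.22 for Lum without oxLDL 2, and -0.048 for Podn without oxLDL 3. The block ranges were -0.32 to 0.10 for Podn, -0.090 to 0.079 for Bgn, -0.19 to 0.56 for Lum and -0.056 to 0.66 for Dcn between oxLDL and Control, and -0.21 to 0.020 for Fmod, -0.53 to 0.22 for Lum, -0.52 to 0.17 for Dcn and -0.048 to 0.37 for Podn between oxLDL and LDL.

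The count of members called was 1 in place of 0 for both oxLDL comparisons with the replicate number as a block, alone or with median-ratio scaling, a pseudocount of 5 or no trend. Between oxLDL and LDL it was also 1 with median-ratio scaling or quantile normalization and no block. Each time the gene was Ogn, and the block alone changed no other call of a member. With the block and 1 library left out it ran from 1 to 2 between oxLDL and Control, was 1 between oxLDL and LDL, and ran from 0 to 1 between LDL and Control, the added gene being Fmod without LDL 2. Without the block, leaving out 1 library gave 0 in each comparison.

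The count of all genes called was 2 between oxLDL and Control, and 17 with the block, 10 with no filter, 1 with a pseudocount of 5, with the 6 compared libraries alone or without trend, and 1 to 3 with 1 library left out. Between oxLDL and LDL it was 14, and 35 with the block, 8 with no filter or without trend, 6 with the 6 libraries, and 1 to 10 with 1 left out, the lowest without oxLDL 2. Between LDL and Control it was 45, and 115 with the block, 19 with no filter, 9 with the 6 libraries, and 4 to 37 with 1 left out, the lowest without LDL 2. The cause was not tested. Counting error is unknown, which limits most the low genes Omd, Aspn and Podn.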
